A study of Mus musculus with 2 samples.

Results

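The genes described here encode the proteins of the cytosolic ribosome, read in single leukocytes from mouse aorta. They were chosen by symbol: every gene named Rpl or Rps followed by a digit, together with Rplp0, Rplp1, Rplp2 and Rpsa, and without the Rps6k kinases and symbols carrying -ps, if the 2 libraries held at least 100 UMIs of it in all. A UMI (unique molecular identifier) tags 1 captured mRNA molecule. Of 27998 genes listed, 87 matched the symbol rule and 84 passed the minimum. Those below it were Rpl10l with 1 UMI, Rpl3l with 9 and Rpl39l with 21. Standard subunits of the ribosome made up 77 of the 84, 46 in the large and 31 in the small subunit. The other 7 symbols were Rpl22l1, Rps27l, Rps27rt, Rpl6l, Rpl36al, Rpl7l1 and Rps19bp1, of which the last encodes a protein that binds Rps19. Fau and Gnb2l1, among others, also encode ribosomal proteins and are left out by the symbol rule.

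Both groups of mice were ApoE-/- on the C57BL6/J strain, which lack apolipoprotein E and develop atherosclerosis. One group was fed chow and the other WD, an abbreviation the labels do not spell out, and no age, sex or length of feeding is given. Viable CD45+ cells of 10 aortas were pooled per diet and loaded as 1 library with the 10x Genomics 3' v2 kit, so each diet has 1 sample, no test between diets was possible, and no p-value is given. Intervals cover counting error at 95% and no difference between animals.

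The kept cells were 894 from the chow diet library, with a median of 3743 UMIs, and 2059 from the WD library, with a median of 3185. Cells were clustered without the 84 genes, so the classes below do not rest on them, and a class carries the ending "-like" because it was named from marker genes. Naive T-like cells held all 8 naive markers, from Igfbp4 in 45.8% of cells to Klf2 in 86.2%. Effector T-like cells held all 9 of theirs, with Nkg7 in 100%. Non-cycling thymocyte-like cells carried Cd8b1 in 100% and Ptcra in 8.98%. Conventional dendritic-like cells are the weakest name, with 6 of 9 markers in at least 20% of cells and Xcr1 in 1.72%. Cycling cells carried thymocyte markers as well, with Dntt in 99.0%, although the labels name only aorta as the tissue. Of 20 clusters, 14 were named and 429 cells stayed unnamed. The libraries shared 3 barcodes.

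Ribosomes consist of a small subunit, which reads the mRNA, and a large subunit, which joins amino acids. Most of its proteins are present once in each cytosolic ribosome, while the stalk proteins Rplp1 and Rplp2 are present in more copies, and their mRNAs belong to the most abundant of any growing cell. These mRNAs typically begin with a C followed by a run of pyrimidines (C or T), the 5' TOP element, through which the mTOR pathway and Larp1 set their translation, and lymphocytes that leave the resting state raise it strongly. An mRNA level is therefore no measure of how much ribosomal protein a cell makes.

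Rps27, a zinc finger protein of the small subunit, had the most UMIs of the 84 genes, and its relatives Rps27rt and Rps27l are taken up in several comparisons below, so their coding sequences are shown first. Rps27 lies on chromosome 3 at 90212522 to 90213651, minus strand, Rps27rt on chromosome 9 at 114982366 to 114982739, minus strand, and Rps27l on chromosome 9 at 66946086 to 66949516, plus strand (GRCm38, GENCODE M21). Rps27rt has 1 exon and its coding sequence of 252 bases is identical to that of Rps27. Rps27l has the same coding length and differs from Rps27 at 60 bases, marked by capitals.
Rps27: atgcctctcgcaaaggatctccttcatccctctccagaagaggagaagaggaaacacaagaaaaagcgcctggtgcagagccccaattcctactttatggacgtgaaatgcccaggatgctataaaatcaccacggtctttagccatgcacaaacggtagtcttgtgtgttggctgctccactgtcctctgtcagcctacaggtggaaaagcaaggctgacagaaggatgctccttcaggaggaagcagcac
Rps27l: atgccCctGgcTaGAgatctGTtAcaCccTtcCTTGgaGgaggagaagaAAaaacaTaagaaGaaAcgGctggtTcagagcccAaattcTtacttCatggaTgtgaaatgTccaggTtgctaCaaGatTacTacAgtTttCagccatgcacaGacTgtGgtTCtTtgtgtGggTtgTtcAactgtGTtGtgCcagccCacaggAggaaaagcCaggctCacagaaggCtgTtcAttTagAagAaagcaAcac

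The start regions of 5 genes that the comparisons below turn on follow, from RefSeq (GRCm38.p6), with 40 bases before and 20 bases from the annotated start. Capitals mark the longest run of C or T within 20 bases on either side of that start.
Rps27 (chr3:90213629-90213688, minus strand): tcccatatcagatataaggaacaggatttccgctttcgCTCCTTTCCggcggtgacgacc
Rps27rt (chr9:114982720-114982779, minus strand): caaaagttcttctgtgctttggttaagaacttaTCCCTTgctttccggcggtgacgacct
Rps27l (chr9:66946046-66946105, plus strand): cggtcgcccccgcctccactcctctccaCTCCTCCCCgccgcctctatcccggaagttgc
Rpl37a (chr1:72711220-72711279, plus strand): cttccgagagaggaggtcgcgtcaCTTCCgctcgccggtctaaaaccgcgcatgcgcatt
Rpl22l1 (chr3:28805468-28805527, plus strand): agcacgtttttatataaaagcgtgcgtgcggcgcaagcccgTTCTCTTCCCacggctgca
The table holds a further start for Rps27l (chr9:66946373-66946432), not printed, whose longest run is 4 bases. In the windows shown the marked run was 9 bases long in Rps27 and Rps27l, 6 in Rps27rt, 5 in Rpl37a and 10 in Rpl22l1. The marked runs of Rps27rt, Rps27l and Rpl37a lie wholly before the annotated start. In Rps27rt another run of equal length begins at the annotated start and is not marked. Over 67 promoters of 57 standard subunit genes in the RefSeq table, the longest such run had a median of 7 bases (quartiles 5 and 10) and reached 7 bases in 55.2%. Over all 32851 promoters of the table the median was 5 and 24.3% reached 7. CTTTCC, searched on both strands within the same 40 bases, stood in 14.9% of the subunit promoters and in 3.68% of all. CCGGAAG, searched on both strands over 300 bases, stood in 37.3% against 8.86%. The motifs can overlap by their ends, and a match only describes the letters.

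Of all UMIs, ribosomal protein genes took 29.0% with chow and 29.1% with WD. Of the 100 genes with most UMIs in the files, 66 were members, and 80 of the 84 had over 10000 UMIs. Levels below are UMIs per 1000000 UMIs of a class or library; the kit reads the 3' end, so they are not divided by length, and a difference between genes also holds how well each 3' end is captured. Rps27 stood at 9709 in the chow diet and 9659 in the WD library. Rps29, a small subunit protein next in rank, stood at 8099 and 8413. Rpl41, which encodes the shortest ribosomal protein, stood at 7247 and 6596, Rpl13 at 6490 and 6812, and Rps19 at 6254 and 6752. Rpl37a, Rpl13a, Rps14 and Rplp0, the stalk base of the large subunit, ranked next, between 5729 and 6708. These values lie close together across the libraries while the genes themselves span a wide range.

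Among the standard subunits the lowest were Rpl5, which carries 5S rRNA into the large subunit, at 1232 in the chow diet and 1172 in the WD library, then Rpl22 at 1232 and 1184 and Rpl7a at 1308 and 1182. The 6 lowest of all were symbols outside the standard ribosome. Rpl22l1, a paralog of Rpl22, stood at 1038 and 1098, and Rpl36al, a paralog of Rpl36a, at 754.9 and 776.1. Rpl6l stood at 723.0 and 319.5, Rps27l at 316.4 and 285.9, Rpl7l1, which acts in ribosome assembly, at 59.1 and 57.9, and Rps19bp1 at 36.9 and 34.2.

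Naive T-like cells gave the largest part of their UMIs to ribosomal protein genes, B-like cells came next among named classes, and macrophage-like and neutrophil-like cells gave the smallest. In naive T-like cells the share was 45.1% in the chow diet library (103 cells) and 44.1% in the WD library (209 cells). B-like cells had 37.1% (130 cells) and 37.9% (448 cells), and type 2 innate lymphoid (ILC2-like) cells 33.9% and 33.2%. Activated CD8-negative T-like cells followed with 29.9% and 31.2%, effector T-like cells with 31.2% (61 cells) and 29.8% (206 cells), gamma delta T-like cells with 27.1% and 28.3% and natural killer (NK)-like cells with 25.5% and 27.1%.

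Cycling cells had 24.8% (89 cells) and 26% (108 cells), and non-cycling thymocyte-like cells 22.2% (86 cells) and 22.5% (81 cells). Among myeloid cells the share was 26.6% and 25.2% in conventional dendritic-like, 20.2% and 18.6% in monocyte-like and 18.6% and 16.8% in macrophage-like cells. Neutrophil-like cells stood at 15.2% (5 cells) and 14.8% (17 cells). Counting intervals are narrow, 45.0% to 45.3% for chow diet naive T-like cells, but cells of a class spread much more. Within chow diet naive T-like cells the share ran from 13.2% to 55.1% with an SD of 7.49 percentage points, where counting alone would give 0.885. The SD was smallest in chow diet non-cycling thymocyte-like cells, at 3.86 points, and largest in chow diet neutrophil-like cells, at 11.3. Neighbours in the order from activated CD8-negative T-like through conventional dendritic-like cells lie closer than these spreads.

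**Figure D1:**
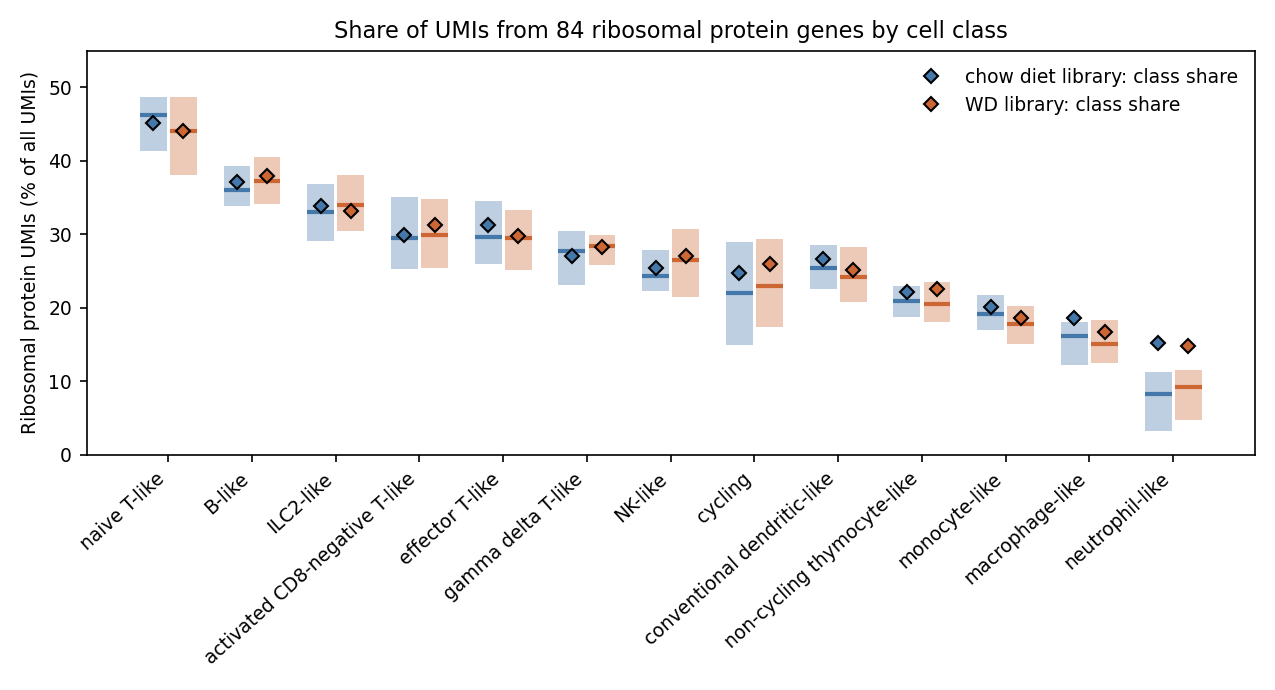
Share of all UMIs (%, y axis) that came from the 84 ribosomal protein genes in each cell class (x axis), chow diet library in blue and WD library in orange. Diamonds give the share of the class's summed UMIs, bars run from the lower to the upper quartile over cells and lines mark the median cell; naive T-like cells stand highest at 45.1% and 44.1% and neutrophil-like cells lowest at 15.2% and 14.8%.

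Unnamed clusters fell between these values. A cluster led by Klra1, Klra7 and Klra9, which encode Ly49 receptors, held all but 1 of the effector T cell markers in at least 20% of its cells, yet its share was 39.6% and 41.4%, above effector T-like cells in both libraries. A cluster led by Jchain and Mzb1, genes of antibody secretion, had 35.5% and 36.3%. Cells led by Itm2a, Tox and Cd5 had 22.1% and 26.9%. The cycling class joins 2 clusters that differ: cells led by Dut, Cdca7 and Hells, genes of DNA replication, had 29.1% and 31.8%, and those led by the mitosis genes Ube2c, Nusap1 and Birc5 had 22.1% and 21.6%.

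A share does not give an amount. The median naive T-like cell held 1449 ribosomal protein UMIs in the chow diet and 1357 in the WD library, and the median cycling cell held more, 1973 and 1440, among far more UMIs of other genes. Conventional dendritic-like cells held 2284 and 1646, and B-like cells, with their high share, held 935 and 872.5. Non-cycling thymocyte-like cells held fewest among classes of at least 50 cells in each library, 401 and 366. A lower share can thus stand beside more ribosomal protein UMIs per cell, and in these pooled, unspiked libraries UMIs per cell also depend on capture.

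**Figure D2:**
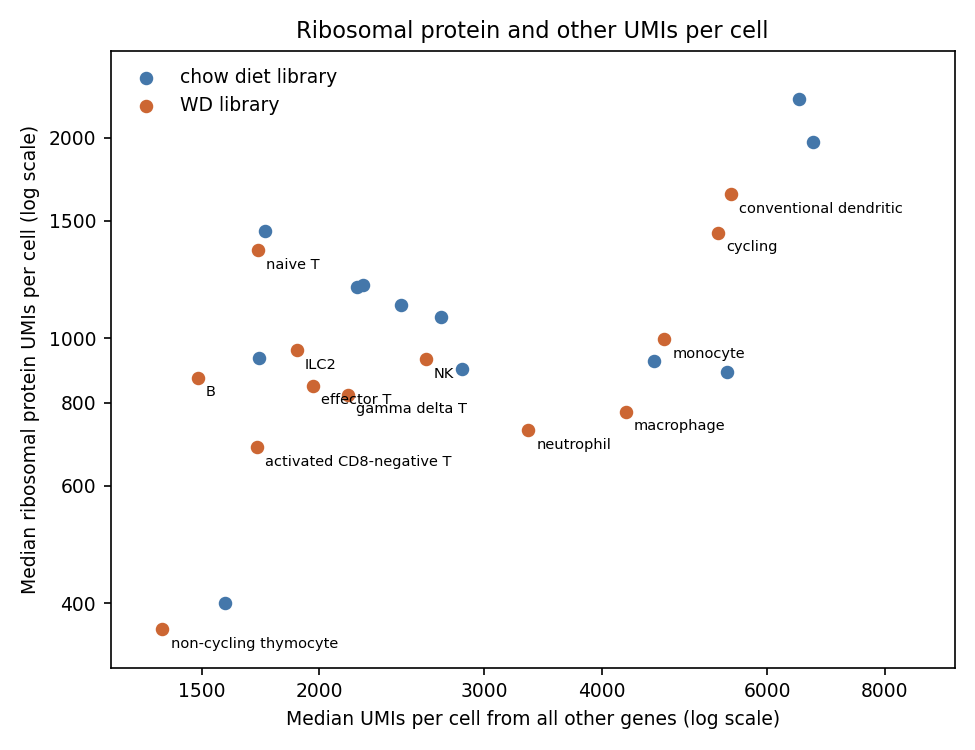
Median ribosomal protein UMIs per cell (y axis, log scale) against the median UMIs per cell of all other genes (x axis, log scale), 1 point per class and library with at least 15 cells; labels stand at the WD points. Naive T-like cells hold 1449 and 1357 ribosomal protein UMIs over few other UMIs, while macrophage-like cells hold 890 and 776 over many.

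Both subunits moved together from cell to cell. Across cells within a class and library, the share of large subunit UMIs and that of small subunit UMIs had a Pearson's r of 0.801 (chow diet B-like, 130 cells) to 0.988 (WD cycling, 108 cells); these values describe cells that share depth and a common denominator. The balance between subunits was not the same in all classes. Large subunit UMIs were 1.11 and 1.12 times small subunit UMIs in naive T-like cells of the chow diet and WD libraries and 1.16 and 1.18 times in B-like cells. They were 1.3 and 1.27 times in effector T-like, 1.29 and 1.27 in cycling and 1.3 and 1.27 in non-cycling thymocyte-like cells. The share of a cell also rose with its depth: r with the logarithm of its UMIs was between 0.142 and 0.749 within classes, lowest in WD effector T-like and highest in chow diet cycling cells.

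Naive against effector T-like cells asks how ribosomal protein mRNA differs between T cells that have and have not taken on effector genes. Ribosomal protein genes were higher in naive T-like cells almost throughout: the summed share was 1.45 times that of effector T-like cells in the chow diet library (interval 1.43 to 1.46) and 1.48 times in the WD library (1.47 to 1.49). The median naive cell held 1.29 and 1.60 times the ribosomal protein UMIs and 0.715 and 0.874 times the UMIs of other genes, so both parts of the ratio moved. Naive T-like cells still carried effector markers in a mean of 13.4% of cells per marker, and effector T-like cells carried naive markers in 18.1%.

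A gene counts as past the fold limit between classes when its ratio exceeds 5/4 (0.32 on the log2 scale), or its inverse, on the same side in both libraries. Gene by gene, 62 of the 84 were past the limit higher and 0 lower. Over all 8078 genes with at least 100 UMIs, 9.45% were past it higher and 28.5% lower. Over the 221 genes with at least 1000 UMIs in the cells compared, a set with many members in it, 36.7% were higher. The median log2 ratio was 0.50 and 0.56 over members and -0.26 in both libraries over all genes. Levels are parts of a fixed total, so a higher part for the members lowers the part of the other genes. The values over all genes, counts and medians alike, are therefore not independent of those over members. Scaling by the median ratio over genes moves every log2 value in this comparison up by 0.35 in the chow diet and 0.27 in the WD library.

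Small subunit genes were higher by more than large subunit genes. Their median log2 ratio was 0.62 and 0.64, with 28 of 31 past the fold, against 0.41 and 0.45, with 30 of 46, for the large subunit. Rps19, a small subunit protein mutated in Diamond-Blackfan anemia, stood at 12001 in naive and 5509 in effector T-like cells of the chow diet library and at 12087 and 5369 in the WD library. This is 2.18-fold (interval 2.05 to 2.32) and 2.25-fold (2.16 to 2.34), and the classes did not overlap across libraries. Rps20, at the mRNA-reading head of the small subunit, was 2.17-fold and 2.09-fold higher. Rps29 was 2.00-fold and 1.99-fold higher, from 6875 to 13784 in the chow diet and from 7053 to 14006 in the WD library. In the large subunit, Rpl12 of the stalk base was 2.16-fold and 1.89-fold higher, Rpl36a 2.01-fold and 1.96-fold, and Rpl31, near the exit of the peptide tunnel, 1.88-fold and 1.98-fold.

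Other members stayed near 1 and so were low against the rest. Rpl13a, which also has a reported role outside the ribosome in halting translation of some mRNAs, stood at 10342 in naive and 10164 in effector T-like cells of the chow diet library and at 9698 and 10170 in the WD library. Its ratios were 1.02 and 0.954, and it formed 1.52 and 1.58 times its usual part of the ribosomal protein UMIs of effector T-like cells. Rpl4 had ratios of 1.06 and 1.14, Rpl36al 0.856 and 0.935 and Rpl27 0.805 and 1.04. Rps27l fell from 147.2 in effector to 50.8 in naive T-like cells of the chow diet library (35 and 18 UMIs) but was 112.4 and 101.3 in the WD library, and with cells chosen by markers its log2 ratio was -0.45 and 0.20. Rps19bp1, with 1 to 14 UMIs a group, had log2 ratios of -2.79 and 0.06, which its depth does not resolve.

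**Figure D3:**
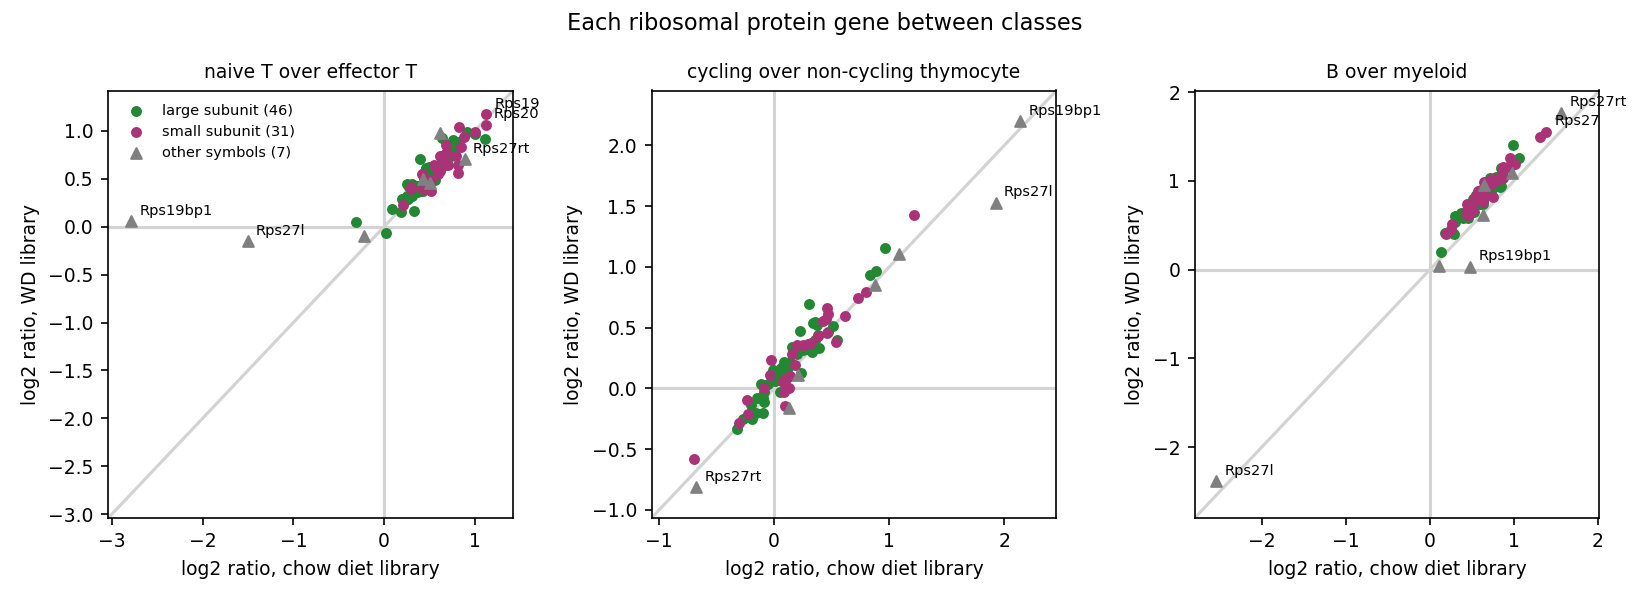
Log2 ratio of each of the 84 genes in the chow diet library (x axis) against the WD library (y axis) for 3 comparisons between classes; green points are the 46 large subunit genes, purple the 31 small subunit genes and grey triangles the other 7 symbols, with the line of equal values. Most members lie above 0 in naive over effector T-like and in B-like over myeloid cells, and Rps27l lies far below 0 in the latter at -2.55 and -2.38.

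Cycling cells had a slightly higher share of ribosomal protein UMIs than non-cycling thymocyte-like cells, but this direction depended on how cells were chosen. The ratio was 1.12 (interval 1.10 to 1.13) in the chow diet and 1.15 (1.14 to 1.17) in the WD library. It was 0.907 and 0.961 with cells chosen by markers alone and 0.593 and 0.751 in cells of 2000 to 5000 UMIs, a range chosen after the data were seen that keeps 15 and 25 cycling cells. The depth difference itself was large: the median cycling cell held 4.92 and 3.93 times the ribosomal protein UMIs and 4.23 and 3.90 times the other UMIs. The mitosis-led cluster at 22.1% and 21.6% did not stand above the non-cycling class at 22.2% and 22.5%, while the replication-led cluster did. The part of depth in this comparison was not tested further.

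Past the fold limit in both libraries, 28 of 84 members were higher and 3 lower, against 23.7% higher and 26.7% lower over all 8078 genes and 44.2% higher over the 308 with at least 1000 UMIs. The count of higher members thus lies between these backgrounds, and with cells chosen by markers 6 were higher and 10 lower. Single members spread to both sides, and those named as higher were less so when cells were chosen by markers. Rps2, which lines the mRNA entry of the small subunit, stood at 3449 in cycling and 1488 in non-cycling cells of the chow diet library and at 3626 and 1350 in the WD library, 2.32-fold and 2.69-fold. With cells chosen by markers its log2 ratio fell from 1.21 and 1.42 to 0.60 and 0.70. Rpl3, at the centre where peptide bonds form, was 1.95-fold and 2.23-fold higher, and Rpl36a 1.85-fold and 1.95-fold; by markers their log2 ratios were 0.33 and 0.48 and 0.29 and 0.35, the chow diet value of Rpl36a falling short of the limit.

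Rps27, first among all members in UMIs, was lower in cycling cells. It stood at 4785 in cycling and 7775 in non-cycling cells of the chow diet library and at 4831 and 7234 in the WD library, 0.615-fold (interval 0.580 to 0.653) and 0.668-fold (0.626 to 0.712). Both cycling values lay below both non-cycling values, and its log2 ratio was negative under each alternative run, from -1.02 to -0.40. Rps27rt, which cannot be told from Rps27 in its coding sequence, was 0.625-fold and 0.568-fold. Rpl37a, a large subunit zinc finger protein, was 0.799-fold and 0.794-fold. Rpl24 and Rpl34 were also low, with ratios between 0.827 and 0.873 in both libraries.

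Rps27l went the other way. It stood at 540.1 and 558.7 in cycling cells of the chow diet and WD libraries and at 141.5 and 192.9 in non-cycling cells, 3.82-fold (interval 2.59 to 5.86) and 2.90-fold (2.02 to 4.28). Rps27l is known as a target of p53 whose product can replace Rps27 in the ribosome. It made up 10.1% and 10.4% of the UMIs of Rps27 and Rps27l together in cycling cells and 1.79% and 2.60% in non-cycling cells. Its log2 ratio was between 0.90 and 2.10 with median-ratio scaling, thinning and cells chosen by markers, and it was not rerun within the depth range. Rpl7l1 and Rps19bp1 were also higher, with wide intervals: 2.14-fold (1.08 to 4.83) and 2.18-fold (1.01 to 5.60) for Rpl7l1 and 4.61-fold (1.51 to 22.9) and 4.88-fold (1.29 to 41.4) for Rps19bp1, which had 3 and 2 UMIs in the non-cycling cells.

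B-like cells had 1.59 times the share of myeloid cells in the chow diet library (interval 1.58 to 1.60) and 1.83 times in the WD library (1.83 to 1.84). The myeloid class joins macrophage-like, monocyte-like and conventional dendritic-like cells. Per cell the amounts ran the other way, since the median B-like cell held 0.633 and 0.863 times the ribosomal protein UMIs of the median myeloid cell and 0.294 and 0.317 times its other UMIs. Myeloid cells carried T cell markers in a mean of 15.6% of cells per marker (11.1% to 19.8% over the 8 markers) and B cell markers in 8.70%, and conventional dendritic-like cells carried T cell markers in 26.8%; their part in the result was not tested.

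Of the 84 members, 73 were past the fold limit higher in B-like cells and 1 was lower, against 18.6% and 38.2% of all 8078 genes and 27.7% higher over the 676 genes with at least 1000 UMIs. The median log2 ratio was 0.63 and 0.84 over members and -0.28 and -0.29 over all genes. Here too, a higher part for the members lowers the part of the other genes. Large and small subunits did not stand apart here, with medians of 0.63 and 0.84 against 0.64 and 0.83. Rps27 stood at 18363 in B-like and 7044 in myeloid cells of the chow diet library and at 16578 and 5637 in the WD library, 2.61-fold (interval 2.52 to 2.69) and 2.94-fold (2.88 to 3.00). Rps27rt was 2.96-fold and 3.41-fold higher, Rps20 2.48-fold and 2.82-fold, Rpl12 1.99-fold and 2.65-fold, Rpl13a 2.08-fold and 2.40-fold and Rps15a 1.94-fold and 2.39-fold. Rpl28, Rpl10 and Rpl36al stayed near 1, with ratios of 1.03 to 1.33.

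The 1 member lower in B-like cells was Rps27l. It stood at 70.6 in B-like and 415.2 in myeloid cells of the chow diet library (27 and 485 UMIs) and at 78.5 and 410.0 in the WD library (90 and 1149 UMIs), 0.170-fold (interval 0.111 to 0.251) and 0.191-fold (0.153 to 0.237). Across classes it was high in cycling cells, in conventional dendritic-like cells at 518.2 and 489.9 and in macrophage-like cells at 307.1 and 323.4. Monocyte-like cells had 262.6 and 411.1. Low values stood in naive T-like cells at 50.8 and 101.3 and in B-like cells. Rps27, in contrast, was at 18834 and 17066 in naive T-like cells and at 5296 and 4394 in macrophage-like cells. At least 1 UMI of Rps27l was held by 89.9% and 88.0% of cycling cells, whose median depths were 8568 and 6705 UMIs, against 17.7% and 17.6% among B-like cells, with medians of 2639 and 2352.5, so the shares of cells also differ by depth.

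**Figure D4:**
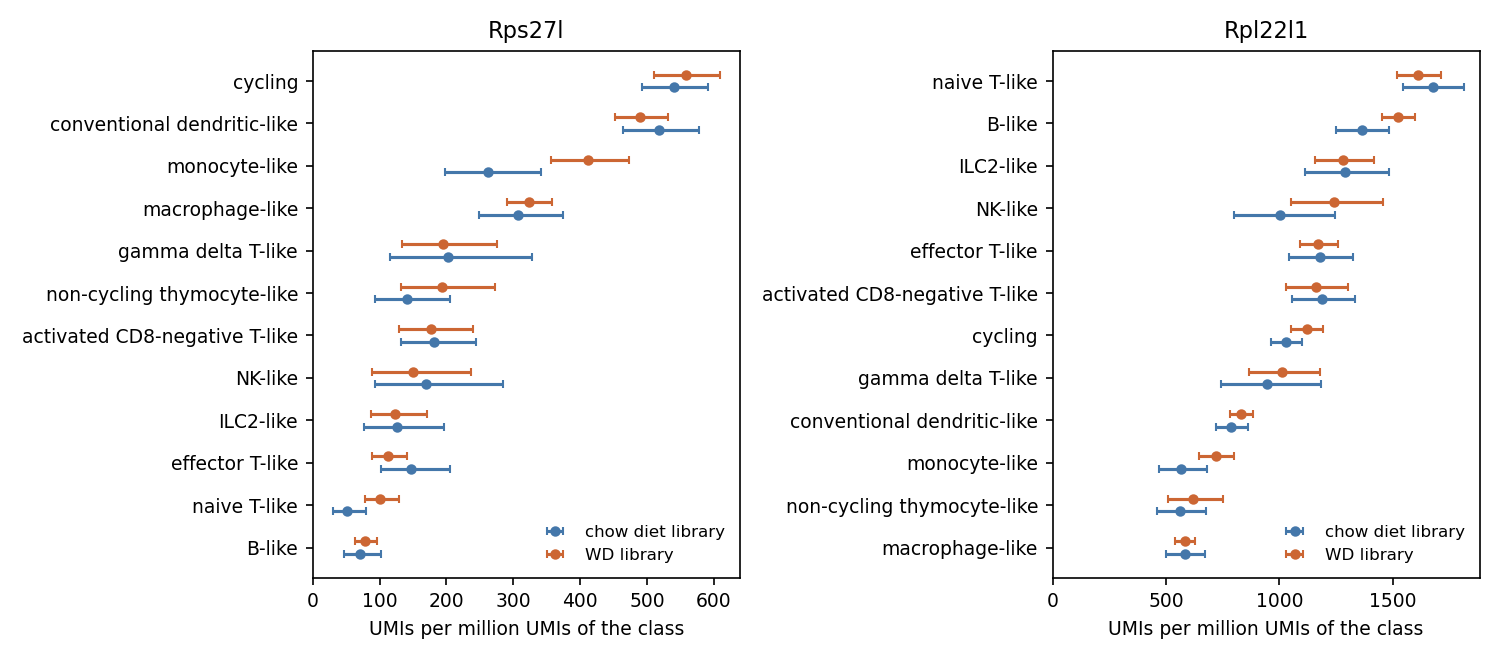
UMIs per 1000000 UMIs of the class (x axis) of Rps27l (left) and Rpl22l1 (right) by cell class (y axis, ordered by the WD library), chow diet in blue and WD in orange; bars are exact 95% counting intervals. Rps27l is highest in cycling cells (540.1 and 558.7) and lowest in naive T-like and B-like cells, and Rpl22l1 is highest in naive T-like cells (1676 and 1613).

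Over all kept cells Rpl22l1 was the paralog nearest in level to its partner, but in non-cycling thymocyte-like cells Rpl36al was nearer to Rpl36a. Rpl22 is needed for the development of alpha beta T cells, and Rpl22l1 can take its place in the ribosome. Rpl22l1 made up 52.8% and 53.5% of the UMIs of the pair in naive T-like cells, 48.2% and 50.4% in B-like, 49.7% and 48.4% in effector T-like, 44.9% and 46.4% in cycling and 33.5% and 37.2% in non-cycling thymocyte-like cells. Its level in cycling cells was 1.84-fold (interval 1.5 to 2.27) and 1.80-fold (1.47 to 2.23) that in non-cycling thymocyte-like cells, while Rpl22 was 1.14-fold and 1.24-fold. The aligned parts of their mRNAs were 76.8% identical over 285 bases, so reads of the pair can mostly be told apart. Rpl36al, against Rpl36a, made up 17.6% and 19.1% of its pair in naive T-like cells and 40.3% and 45.0% in non-cycling thymocyte-like cells, a shift in which Rpl36a moved more than Rpl36al.

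The makeup of the ribosomal protein UMIs was compared next. With each member's part of the set compared with its part over all kept cells, 76 of 84 members stayed within the fold limit in both libraries in B-like cells, 76 in myeloid, 72 in naive T-like, 69 in effector T-like, 61 in cycling and 56 in non-cycling thymocyte-like cells. All kept cells include the class itself. Myeloid cells held 272243 and 579903 ribosomal protein UMIs and non-cycling thymocyte-like cells 42385 and 37403, so the counts are not on an equal footing between classes. Past 1.5-fold on the same side in both libraries were 3 members in naive T-like and 3 in effector T-like cells, 1 in B-like, 1 in myeloid and 7 each in cycling and non-cycling thymocyte-like cells. With cells chosen by markers the count was 1 in non-cycling thymocyte-like and 3 in myeloid cells. In the main run Rps27l was among them in naive T-like, effector T-like, cycling, B-like and myeloid cells. No standard subunit was among them in naive T-like, B-like or myeloid cells. The 3 in naive T-like cells were Rps27l on 18 and 68 UMIs, Rps19bp1 on 1 and 14 and Rpl7l1 on 14 and 33. In effector T-like cells Rpl13a was the only standard subunit, and Rpl7l1 had 6 and 16 UMIs. Rpl28 was above in both cycling (1.54 and 1.61) and non-cycling thymocyte-like cells (1.56 and 1.59). Rps19 was below in non-cycling thymocyte-like cells, at 0.638 and 0.566. Rplp1, a stalk protein of the large subunit, was above in ILC2-like cells, at 1.63 and 1.75, and Rpl36al in monocyte-like cells, at 1.53 and 1.99.

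Between the diets, over all kept cells, the WD share was 1.00 times the chow diet share (interval 1.00 to 1.01). By class the ratio was 0.976 in naive T-like, 0.956 in effector T-like, 1.05 in cycling, 1.02 in non-cycling thymocyte-like, 1.02 in B-like and 0.888 in myeloid cells. Macrophage-like cells had 0.900, monocyte-like 0.920 and conventional dendritic-like cells 0.946, and macrophage-like cells, with the lowest share, were 30.1% of myeloid cells in the chow diet and 44.8% in the WD library. In effector T-like, naive T-like, non-cycling thymocyte-like and myeloid cells at least 1 other way of choosing cells turned the direction. With 1 library a diet, diet and library cannot be told apart.

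Members past the fold limit in either direction numbered 6 of 84 in naive T-like cells, 7 in effector T-like, 3 in cycling, 4 in non-cycling thymocyte-like, 4 in B-like and 8 in myeloid cells. With each cell thinned to 1000 UMIs the counts were 12 in effector T-like, 9 in cycling and 8 in non-cycling thymocyte-like cells, and with cells chosen by markers 5 in myeloid cells. Over all 8078 genes, most of which hold few UMIs in a single class, the share past it was 55.6% in naive T-like, 58.7% in effector T-like, 43.6% in cycling, 59.0% in non-cycling thymocyte-like, 55.3% in B-like and 40.0% in myeloid cells. Over genes with at least 1000 UMIs in the class, it was 6.02%, 10.4%, 4.67%, 5.66%, 6.25% and 18.9% in the same order. Among members with at least 1000 UMIs in the class, 3 of 79, 4 of 79, 1 of 79, 0 of 36, 2 of 80 and 7 of 82 were past it. Members are thus a large part of that set, 79 of 133 genes in naive T-like, 79 of 135 in effector T-like and 36 of 53 in non-cycling thymocyte-like cells. Of the other genes in it, 5 of 54, 10 of 56, 11 of 178, 3 of 17, 9 of 96 and 92 of 443 were past the limit, in the same order of classes. In all, 74 members were past the fold in no class, and no matching count over all genes is given here.

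The differences that recurred came from few symbols. Rpl15, Rps27rt and Rpl6l were past the fold limit lower in the WD library in all 6 classes, and no member was past it higher in all. How many of all genes were past it in every class is not given here, so this count is a description. Rpl15, a large subunit protein on chromosome 14 at 18267823 to 18271391, stood at 3290 in chow diet and 2321 in WD naive T-like cells, 1922 and 1336 in effector T-like, 2629 and 2072 in cycling, 2363 and 1634 in non-cycling thymocyte-like, 2283 and 1616 in B-like and 1671 and 1080 in myeloid cells. The WD value was lower within each class, and over all kept cells the ratio was 0.685 (interval 0.667 to 0.703). Rps27rt stood at 3371 and 1456 in naive T-like and 3470 and 1534 in B-like cells, with ratios from 0.384 in myeloid to 0.499 in non-cycling thymocyte-like cells and 0.484 (0.468 to 0.50) over all. Rpl6l, a single-exon copy on chromosome 10 at 111125851 to 111126721, had ratios from 0.391 in effector T-like to 0.505 in B-like cells and 0.442 (0.420 to 0.465) over all.

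Their near-identical sequences make the copies uncertain. Over 341 aligned bases the Rps27rt transcript is 100% identical to Rps27, and over 871 bases Rpl6l is 98.7% identical to Rpl6, and GENCODE lists Rpl6l as a processed pseudogene. Reads from such a copy and from its parent may be split by the counting. The parents did not differ to the same extent: Rps27 had a ratio of 0.995 and Rpl6 of 1.03 over all kept cells. By class Rps27 was mostly lower in the WD library, though past the fold limit in no class. Its log2 ratio ran from -0.321 in myeloid to 0.014 in cycling cells, with a median of -0.123 over the 6 classes. For Rpl6 the log2 ratio ran from -0.053 to 0.164. The medians of the copies were further down, at -1.16 for Rps27rt and -1.22 for Rpl6l. The 12 ribosomal protein symbols with -ps and at least 100 UMIs, which are no members, shared the pattern: summed, they stood at 5350 in the chow diet and 2908 in the WD library, a ratio of 0.543 (interval 0.534 to 0.553), and 10 of the 12 were past the fold limit lower in all 6 classes. Each of the 12 has 1 exon and is 95.3% to 100% identical to its parent over the aligned bases. Over all kept cells the ratios of these parents ran from 0.803 for Rpl27 to 1.07 for Rps18. The cause of a difference that copies shared across classes was not tested.

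Beyond these, Rps28, a small subunit protein, was lower in the WD library with ratios of 0.750 in naive T-like, 0.774 in effector T-like and 0.717 in myeloid cells and 0.823 (interval 0.810 to 0.837) over all kept cells. Rpl27 was at 0.661 in effector T-like and 0.755 in myeloid cells and at 0.803 (0.783 to 0.823) over all. Rpsa, which is also known as a laminin receptor, and Rpl12 were past the fold in myeloid cells alone among the 6 classes, at 0.782 and 0.786, and no test of the difference between classes was possible. Rps27l in WD naive T-like cells was 1.99 times its chow diet level (1.17 to 3.56), on 68 and 18 UMIs, and its log2 ratio went from 0.98 to -0.09 when each cell was thinned to 1000 UMIs.

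**Figure D5:**
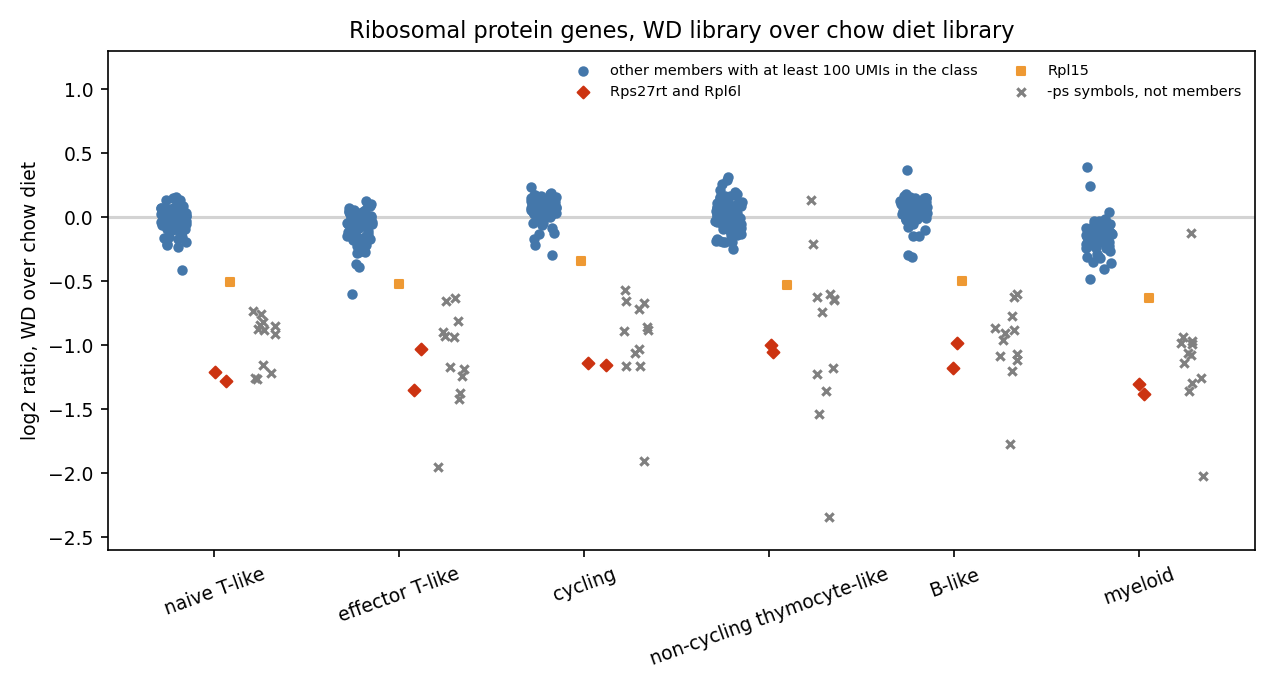
Log2 ratio of WD over chow diet (y axis) in 6 cell classes (x axis), 1 point per gene: members with at least 100 UMIs in the class in blue, Rps27rt and Rpl6l in red, Rpl15 in orange and the 12 ribosomal protein -ps symbols, which are no members, as grey crosses. Most members lie close to 0 outside myeloid cells, where all 77 standard subunits lie below 0, with a median of -0.15. Rps27rt, Rpl6l and most -ps symbols lie near -1 in each class.

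Other genes of translation were read from lists set with earlier results of these data known, and their counts stand beside the shares over all 8078 genes: 9.45% higher and 28.5% lower in naive over effector T-like, 23.7% and 26.7% in cycling over non-cycling and 18.6% and 38.2% in B-like over myeloid cells. Ribosomal proteins outside the symbol rule followed the members only in part. Fau, whose product is cut into Rps30 and a ubiquitin-like part, had log2 ratios of 0.11 and 0.10 in naive over effector T-like cells and 0.67 and 0.90 in B-like over myeloid cells. Gnb2l1, the scaffold Rack1 of the small subunit, had 0.47 and 0.57 and then 0.46 and 0.51 in the same comparisons. In cycling over non-cycling cells Fau was at -0.47 and -0.58.

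Among 10 elongation factors and other products of TOP mRNAs, 3 were past the fold limit higher and 0 lower in naive over effector T-like cells, 5 and 0 in B-like over myeloid cells and 5 and 1 in cycling over non-cycling cells. Eef1a1, which brings aminoacyl-tRNA to the ribosome, had log2 ratios of 0.33 and 0.29 in naive over effector T-like cells, below the member medians, and Eef1g 0.48 and 0.77, while Eef2, which moves the ribosome along the mRNA, was at -0.21 and -0.19. Of 49 initiation factors, 3 (6.12%) were higher and 6 (12.2%) lower in naive over effector T-like cells, both below the shares over all genes. Eif1 had -0.40 and -0.16 and Eif3f -0.19 and -0.30. Of 74 mitochondrial ribosomal proteins, which serve the separate ribosomes of mitochondria, 4 were higher and 12 (16.2%) lower in naive over effector T-like cells and 5 higher and 26 (35.1%) lower in B-like over myeloid cells, where 38.2% of all genes were lower.

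Most listed genes that build ribosomes were higher in cycling cells. Of 26 ribosome biogenesis genes, 18 (69.2%) were past the fold limit higher and 2 (7.69%) lower, with a median log2 ratio of 1.135 and 1.245 against 0.19 and 0.29 over the 84 members. Npm1, a nucleolar chaperone, had log2 ratios of 1.19 and 1.10, Ncl, which acts on rRNA precursors, 0.71 and 0.89, and Nop10, a part of the particles that modify rRNA, 1.61 and 1.60, while Gltscr2 was lower at -1.19 and -1.24. Mitochondrial ribosomal proteins were higher in 34 (45.9%) and lower in 5 (6.76%) of 74, and initiation factors higher in 18 (36.7%) and lower in 8 (16.3%) of 49, against 23.7% and 26.7% of all genes, with Eif5a at 1.61 and 1.64. The gene lists were rerun only with median-ratio scaling. They were not rerun with cells chosen by markers, with thinned cells or within a set range of depth. In cycling over non-cycling cells the direction of the ribosomal protein share turned with cells chosen by markers and within the depth range. Whether the list results of that comparison hold there was not tested. In naive over effector T-like cells 7 of 26 biogenesis genes were higher and 1 lower, and in B-like over myeloid cells 9 and 1. Of 5 measured genes of the p53 response, 0 were higher and 4 lower in B-like over myeloid cells, with Mdm2, the p53 inhibitor, at -1.50 and -1.41, and Ccng1 at -0.81 and -0.88; over all genes too, more were lower than higher there. In cycling over non-cycling cells 1 was higher, Cdkn1a at 2.19 and 5.14. Cdkn1a had almost no UMIs in the non-cycling cells, so the size of these values depends on the 0.5 UMIs added and is not resolved. In the same comparison 2 were lower, Ccng1 at -1.18 and -1.88 and Trp53inp1 at -1.90 and -2.01. In naive over effector T-like cells 0 were higher and 4 lower. Of 10 measured genes listed as regulators, mostly of the mTOR and Myc pathways, 2 were higher and 3 lower in naive over effector T-like cells. The 2 higher were Myc at 1.70 and 1.29 and Tsc22d3 at 1.20 and 0.95. Tsc22d3 is not counted here as a gene of either pathway. Of 3 small nucleolar RNA hosts, 2 were higher and 0 lower in naive over effector T-like cells.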

How the data were processed

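Per the labels' protocols, viable CD45+ aortic leukocytes were sorted and prepared with the 10x 3' v2 kit, 1 library per diet. Deposited values are whole-number UMI counts per gene and barcode, made by the authors with Cell Ranger and STAR on mm10, per the submitters' processing notes, and neither tool versions nor the handling of reads from identical copies were found in the labels used here. The files held 909 and 2077 barcodes with 4608033 and 8782901 UMIs (1493 to 25141 and 1414 to 28099 per barcode). Barcodes with under 200 genes (2 and 0) or over 10% mitochondrial UMIs (11 and 16) were removed, as were the 2 and 2 that Scrublet called, 0.220% and 0.0963% against an expected 0.727% and 1.66%, so doublets may remain. Cells were clustered in scanpy 1.11.5 without members and -ps symbols (2000 variable genes, 30 components, 15 neighbours, Leiden resolution 1.0), with no batch correction. A cluster took the marker set with the highest mean detection if at least 3 markers stood in 20% of cells and at least 2 of its markers, more than of any other set, were among its 10 leading genes; this rule was set after the clusters were seen.

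Class sums of UMIs were divided by all UMIs of the class. Shares carry exact binomial (Clopper-Pearson) intervals and ratios exact conditional ones at 95%; log2 ratios add 0.5 UMIs. A gene is past the fold limit (5/4) between classes when it exceeds it on the same side in both libraries, and between diets when it exceeds it in the class. Genes named were those with most and fewest UMIs, up to 6 highest and 6 lowest per comparison relative to the summed members with at least 30 UMIs, every symbol outside the standard ribosome with its partner, up to 5 genes per list by UMIs, and 3 leading genes per cluster; Rplp1, and other genes named for the makeup of the set, were chosen after their values were seen. The members and lists were chosen with earlier results of these data known. The ratio step was tested on simulated data for WD over chow diet in naive T-like cells. Over 7594 genes, 97.2% of intervals held the true ratio. Of 35 changed genes with at least 100 UMIs, 35 had intervals that excluded 1. The simulated counts held counting error alone, as the intervals assume. The test therefore checks the calculation and cannot show how the intervals perform with the spread between cells. All 84 members matched GENCODE M21 by gene ID. Alternatives for share ratios were a 5% mitochondrial limit, clusters made with members, cells chosen by markers, means over cells, another total and standard subunits. Single members and counts past the fold limit were rerun with median-ratio scaling, thinning to 1000 UMIs, any UMI and cells chosen by markers. Cells chosen by markers were taken 1 by 1, without clusters, if they held several markers of a class and few of the others. Some genes that this rule names are not reported here.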

Additional observations from a re-analysis of the deposited data

Results flagged for a closer look

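The ribosomal protein share moved in opposite directions between the libraries in different classes, with counting intervals that exclude 1. The WD over chow diet ratio was 0.976 in naive T-like, 0.956 in effector T-like and 0.888 in myeloid cells and 1.05 in cycling, 1.02 in non-cycling thymocyte-like and 1.02 in B-like cells. The difference between classes was not tested, since each diet has 1 library, and several of these directions turn with the way cells are chosen.

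Outside the members, the 12 ribosomal protein -ps symbols with at least 100 UMIs summed to 5350 UMIs per 1000000 UMIs in the chow diet and 2908 in the WD library; they were taken for their UMI count, so their level is a description. The only other -ps symbol with at least 100 UMIs, Gpr137b-ps, had a ratio of 1.10 (interval 0.914 to 1.32), so the lower WD level was seen in ribosomal protein copies and not in that symbol.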

How the results depend on the processing

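Of 102 alternative values of share ratios, 46 stayed within the counting interval, 46 moved beyond it on the same side of 1 and 10 turned direction; the naive over effector T-like and B-like over myeloid ratios stayed above 1 in each alternative run. With the 50 most abundant other genes left out of the total the ratios were B-like over myeloid 1.53 (chow diet) and 1.76 (WD), cycling over non-cycling 1.06 (chow diet) and 1.08 (WD), naive over effector T-like 1.4 (chow diet) and 1.41 (WD), WD over chow diet 0.972 in effector T, 0.895 in myeloid, 1.04 in non-cycling thymocyte. In cells of 2000 to 5000 UMIs (chosen after the data were seen) the ratios were B-like over myeloid 2.19 (chow diet) and 2.14 (WD), cycling over non-cycling 0.593 (chow diet) and 0.751 (WD), naive over effector T-like 1.47 (chow diet) and 1.45 (WD), WD over chow diet 1.03 in B, 1.27 in cycling, 0.991 in effector T, 1.05 in myeloid. With clusters made with the members the ratios were cycling over non-cycling 1.19 (WD), naive over effector T-like 1.6 (chow diet) and 1.49 (WD), WD over chow diet 1.04 in effector T, 0.966 in naive T, 0.988 in non-cycling thymocyte. With cells chosen by markers the ratios were B-like over myeloid 1.86 (chow diet) and 2.13 (WD), cycling over non-cycling 0.907 (chow diet) and 0.961 (WD), naive over effector T-like 1.34 (chow diet) and 1.37 (WD), WD over chow diet 1.06 in B, 1.002 in effector T, 0.928 in myeloid, 1.02 in naive T, 0.984 in non-cycling thymocyte. With the share averaged over cells the ratios were B-like over myeloid 1.7 (chow diet) and 1.91 (WD), cycling over non-cycling 1.02 (chow diet) and 1.09 (WD), naive over effector T-like 1.46 (WD), WD over chow diet 1.07 in cycling, 0.975 in effector T, 0.911 in myeloid, 0.983 in naive T. At a mitochondrial limit of 5% the ratios were B-like over myeloid 1.56 (chow diet) and 1.8 (WD), cycling over non-cycling 1.14 (chow diet) and 1.19 (WD), naive over effector T-like 1.41 (WD), WD over chow diet 1.03 in B, 0.99 in effector T, 0.899 in myeloid. With standard subunits only the ratios were WD over chow diet 1.03 in B. Without Rps27rt and Rpl6l (added after the data were seen) the ratios were WD over chow diet 1.03 in B. Without the 3 shared barcodes (added after the data were seen) the ratios were WD over chow diet 0.893 in myeloid. With each cell thinned to 1000 UMIs the counts of members were 9 past the limit in WD over chow diet in cycling, 12 past the limit in WD over chow diet in effector T, 8 past the limit in WD over chow diet in non-cycling thymocyte, 8 past the limit in cycling over non-cycling thymocyte, lower, 1 past the limit in naive T over effector T, lower. At 5/4 in place of 1.5-fold the counts of members were 4 departing in the makeup in B, 18 departing in the makeup in cycling, 11 departing in the makeup in effector T, 3 departing in the makeup in myeloid, 9 departing in the makeup in naive T, 22 departing in the makeup in non-cycling thymocyte. With cells chosen by markers the counts of members were 3 departing in the makeup in myeloid, 1 departing in the makeup in non-cycling thymocyte, 5 past the limit in WD over chow diet in myeloid, 6 past the limit in cycling over non-cycling thymocyte, higher, 10 past the limit in cycling over non-cycling thymocyte, lower. With members of any UMI count the counts of members were 2 past the limit in B over myeloid, lower. With median-ratio scaling the counts of members were 44 past the limit in cycling over non-cycling thymocyte, higher. Thinning also took the log2 ratio of Rps27l in naive T-like cells between diets to -0.0917; the causes were not tested. Of 576 alternative values for named members, 535 moved by less than 5/4. Among the 576, 144 came from members of any UMI count, a setting that cannot change a single member's value. With cells chosen by markers 125 moved by less than 5/4 and 19 by more. Single classes of few cells and genes under about 30 UMIs limit what these libraries resolve. No paired analysis was possible because each diet has 1 library.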
